A study of Mus musculus with 931 samples.

Results

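Pancreatic α cells of adult mice at postnatal day 60 (P60) were set against α cells of pups near weaning, at P15 and P18. The cells were chosen by their label as single-hormone α cells of these stages, and there were 172 of them among the 917 cells of the single-cell table. The P60 group held 83 cells in 5 labelled batches, of 20, 16, 15, 16 and 16 cells in batches P60-1 to P60-5. The near-weaning group held 89 cells in 5 labelled batches, of 24 and 21 cells at P15 and of 19, 13 and 12 cells at P18.

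All of these cells came from Gcg-Cre; Rosa-RFP mice on a mixed C57BL/6, CBA/J and C3H background, in which cells that have used the glucagon promoter carry red fluorescent protein. The mark is kept by any cell whose lineage once switched Gcg on, so fluorescence alone does not fix the present hormone. Both groups carried the same alleles and no treatment, and differed in age. Batches P60-1 and P60-5 were FACS-sorted and P60-2, P60-3 and P60-4 manually picked, whereas P15-1, P18-1 and P18-2 were sorted and P15-2 and P18-3 manually picked. The labels name batches but no animals, sexes or hours of collection, so the p-values reflect how far labelled batches scatter, and that scatter may be technical.

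α cells secrete glucagon, which raises blood glucose by acting on the liver, and they respond to falling glucose, amino acids and adrenergic input. They are born early in islet formation, and their number grows by division around birth and then slows. Weaning replaces fat-rich milk with carbohydrate-rich chow, and the study asked how islet cells change between such stages and adulthood.

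Libraries were made with Smart-seq2, which reads whole transcripts of single cells and carries no molecular identifiers. For each batch the reads of its cells were added up, which gave 13.9 to 24.9 M (mega) gene reads per batch, and the batch was the replicate. Levels are in CPM, the reads of a gene relative to all gene reads of the batch after TMM scaling. Reads per cell had batch medians of 0.980 to 1.30 M at P60 and 0.864 to 1.21 M near weaning, and genes detected per cell had batch medians of 6414 to 7158 at P60 and 6344 to 7206 near weaning. The ERCC spike-in share was 1.67% to 7.23% at P60 and 2.66% to 8.38% near weaning. No difference in these measures passed a two-sided exact permutation test over the batches (p = 0.159 for reads, p = 0.548 for genes detected and p = 0.405 for spike-ins, where the smallest p possible with 5 against 5 is 0.00794).

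Gcg was high in every cell of both groups, as the α label requires, though some cells also held other hormones at high levels. Gcg, the glucagon gene, took 35.1%, 36.8%, 40.9%, 47.6% and 44.8% of gene reads in P60-1 to P60-5, against 35.1% and 40.0% in the P15 batches and 39.4%, 36.5% and 39.5% in the P18 batches. The groups overlapped, and 3 P60 batches lay above the highest near-weaning batch. The mean share was 41.0% ± 5.25 at P60 and 38.1% ± 2.17 near weaning (SD, n = 5 each), a difference within the spread between batches (two-sided exact permutation p = 0.254). Every one of the 83 P60 cells and the 89 near-weaning cells had at least 10 CPM of Gcg.

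Very few genes passed the test. Of 16010 genes tested with edgeR's quasi-likelihood test, 1 was higher at P60 with Benjamini-Hochberg adjusted p under 0.05, Tmem59l (0.00625% of the genes tested), and 1 was lower, Pabpc1 (also 0.00625%). At an unadjusted p under 0.05, 576 genes were higher (3.6%) and 762 lower (4.76%). In 96 genes (0.6%) all 5 P60 batches lay above all 5 near-weaning batches, and in 101 genes (0.631%) all lay below. The median log2 change over all genes tested was 0.01, and 51.1% of them had a positive log2 change. With counts simulated for this comparison in 15292 genes, the same fit recovered 23% of 2-fold and 53% of 4-fold changes, so changes of that size can go uncalled. DESeq2 called 101 genes higher and 188 lower on the same batches, and a fit that took its spread from all 45 α and β batches called 9 higher and 23 lower.

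Tmem59l, which encodes a transmembrane protein related to TMEM59, was the gene that rose. It had 164, 118, 136, 319 and 270 CPM in P60-1 to P60-5, against 44.4 and 69.1 CPM in the P15 batches and 50.2, 40.7 and 48.4 CPM in the P18 batches. Every P60 batch lay above every near-weaning batch. The mean was 201 ± 88.1 CPM at P60 and 50.6 ± 11.0 CPM near weaning (SD, n = 5 each), 3.98-fold higher, with a log2 change of 1.99 ± 0.30 (SE) and an edgeR adjusted p of 0.0365. The gene reached at least 10 CPM in 75 of 83 P60 cells and in 44 of 89 near-weaning cells. Its stage means were 21.0 CPM at E17.5, 26.3 CPM at P0, 39.4 CPM at P9, 56.8 CPM at P15, 46.4 CPM at P18 and 201 CPM at P60. Tmem59l lies on chromosome 8, from 70483867 to 70487358 on the minus strand of GRCm38, and no exon of another annotated gene overlaps its exons.

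Pabpc1, the cytoplasmic poly(A)-binding protein that coats mRNA tails and promotes translation, was the gene that fell. It had 82.7, 72.3, 54.6, 72.3 and 80.8 CPM in P60-1 to P60-5, against 143 and 146 CPM in the P15 batches and 122, 144 and 99.5 CPM in the P18 batches. All P60 batches lay below all near-weaning batches. The mean was 72.5 ± 11.1 CPM at P60 and 131 ± 20.1 CPM near weaning (SD, n = 5 each), 1.81-fold lower, with a log2 change of -0.80 ± 0.13 (SE) and an edgeR adjusted p of 0.0365. Stage means were between 122 and 156 CPM from E17.5 to P18, above the 72.5 CPM of P60. Pabpc1 lies on chromosome 15, from 36595661 to 36609668, and reads it may share with near-identical pseudogene copies make its level uncertain.

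Both calls sat close to the threshold. With 1 batch left out, the adjusted p of Tmem59l ran from 0.0101 to 0.0967, and the call held without P60-2 or P60-3 and was lost without any of the other 8 batches. The adjusted p of Pabpc1 ran from 0.0367 to 0.108, and its call held without P18-1 only. Neither gene was called against P18 alone (adjusted p = 0.102 for Tmem59l and 0.164 for Pabpc1), in sorted batches (0.245 and 0.526) or in picked batches (0.854 for both), where each kept its direction. Tmem59l was also not called against P15 alone (adjusted p = 0.162) or in the fit on all 45 batches (0.226). Nor was it called on only the 10 batches compared (0.111) or with P15 and P18 as separate groups (0.0506). Pabpc1 was called against P15 alone (0.0246). It was not called on only the 10 batches (0.277), without the low-count filter (0.0519) or with each cell weighted equally (0.147). With the batch number as a block, neither was called (0.293 for Tmem59l and 0.220 for Pabpc1). Of 23 alternative settings, 7 called Tmem59l and 7 called Pabpc1.

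A group of genes stood just outside the threshold, all at an adjusted p of 0.0526. Rgs4, which speeds the switching off of G proteins of the Gi and Gq classes, had 386, 267, 251, 309 and 175 CPM in P60-1 to P60-5, against 160 and 88.1 CPM at P15 and 135, 113 and 103 CPM at P18. Its batches did not overlap between the groups (log2 change 1.27). Serpine2, a secreted inhibitor of thrombin and other serine proteases, had 58.3, 94.6, 46.1, 37.2 and 34.0 CPM in P60-1 to P60-5, against 144 and 160 CPM at P15 and 158, 136 and 142 CPM at P18. It was lower in every P60 batch (log2 change -1.48), and 41 of 83 P60 cells against 74 of 89 near-weaning cells had at least 10 CPM. Dynlt3, a light chain of the dynein motor, averaged 22.9 ± 6.45 CPM at P60 and 49.2 ± 12.8 CPM near weaning without overlap (SD, n = 5 each). Tnfrsf21, the death receptor DR6, had 2 reads in all P60 batches together and 345 reads near weaning, where P18-2 had none. The near-weaning reads lay in 9 of 89 cells. With each cell weighted equally, the log2 change of Tnfrsf21 was -0.42 in place of -7.08. Of 23 alternative settings, 3 called Rgs4, 5 called Serpine2 and 2 called Dynlt3, and 5 of 22 called Tnfrsf21.

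**Figure D1:**
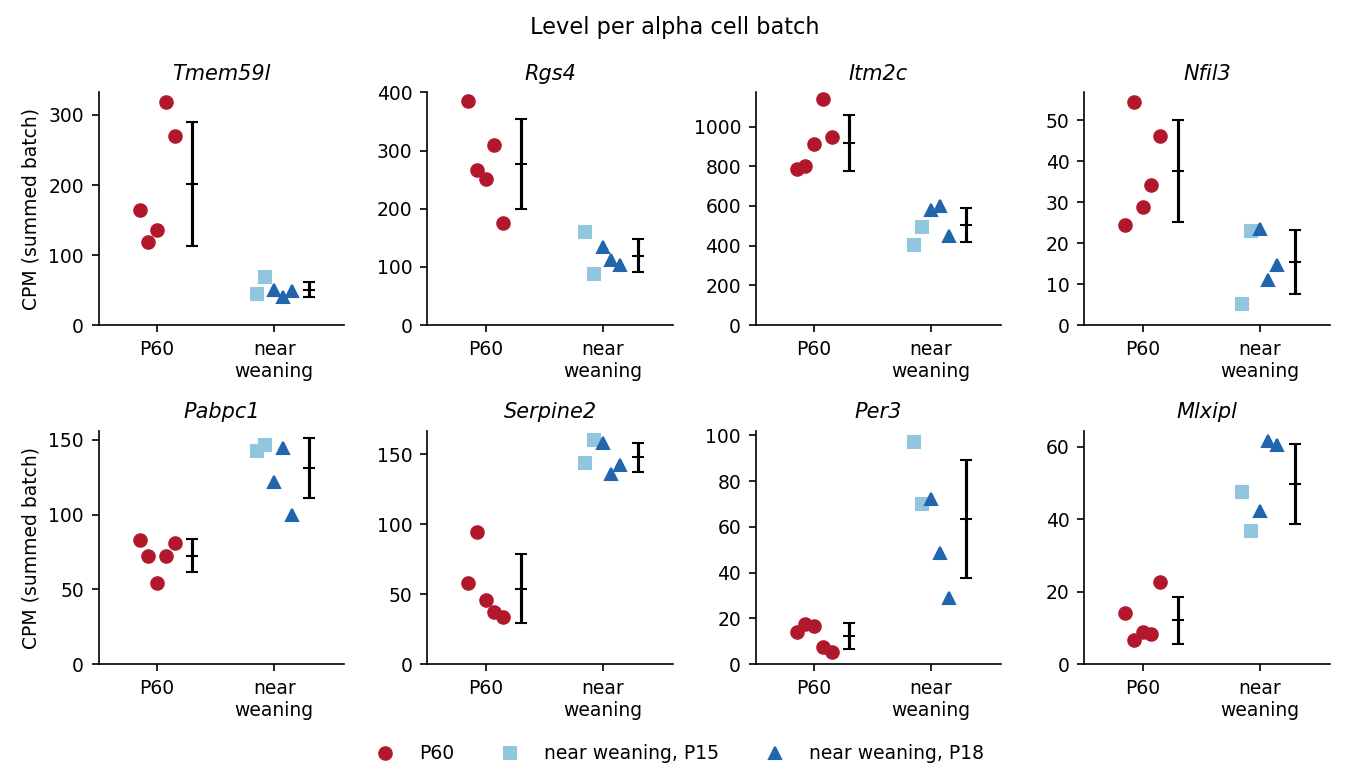
CPM of 8 genes in each α cell batch (y axis, linear, from 0), P60 batches left and near-weaning batches right, with the mean ± SD of 5 batches beside the points. The batches of the groups do not overlap in any of the 8 panels, since lack of overlap was among the reasons for choosing these genes. Over all genes tested, 0.6% were higher and 0.631% lower without overlap. Tmem59l and Pabpc1 are the panels that passed the test.

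Among metabolic regulators, Mlxipl, the carbohydrate response factor ChREBP that drives glycolytic and lipogenic genes in liver, was lower in every P60 batch. It had 14.2, 6.78, 8.80, 8.29 and 22.6 CPM in P60-1 to P60-5, against 47.5 and 36.9 CPM at P15 and 42.3, 61.5 and 60.5 CPM at P18. The log2 change was -2.03 with an edgeR adjusted p of 0.0671, and over 23 alternative settings the adjusted p ran from 4.15e-05 to 0.733, with 2 calls, by DESeq2 and by the fit on all 45 batches (7.23e-05). Scarb1, the receptor that takes up cholesterol from high-density lipoprotein, averaged 11.3 ± 3.67 CPM at P60 and 31.4 ± 11.7 CPM near weaning (SD, n = 5 each). Adcy1, an adenylyl cyclase stimulated by calcium and calmodulin, averaged 4.55 ± 3.07 CPM at P60 and 31.0 ± 11.7 CPM near weaning. Exoc5, a subunit of the exocyst that tethers vesicles, averaged 31.9 ± 5.35 CPM and 61.6 ± 17.4 CPM in P60 and near-weaning batches. Each of these 3 had no overlap between the groups, and their adjusted p-values were 0.112 for Scarb1 and Exoc5 and 0.156 for Adcy1.

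On the higher side, Itm2c, an integral membrane protein with a BRICHOS domain, had 787, 802, 913, 1137 and 947 CPM in P60-1 to P60-5, against 401 and 492 CPM at P15 and 579, 598 and 450 CPM at P18. Its groups did not overlap (log2 change 0.83, adjusted p = 0.189), and of 23 alternative settings 2 called it, DESeq2 and the fit on all 45 batches (adjusted p = 0.00999), where the highest adjusted p was 0.854. Tmem27, collectrin, a partner of amino acid transporters, averaged 3199 ± 602 CPM at P60 and 2069 ± 247 CPM near weaning, with P60-1 inside the near-weaning range. Sdf4, a calcium-binding protein of the Golgi lumen, averaged 440 ± 38.4 CPM at P60 and 306 ± 37.5 CPM near weaning without overlap. Pikfyve, the kinase that makes the endosomal lipid PI(3,5)P2, averaged 36.0 ± 3.31 CPM at P60 and 16.9 ± 5.66 CPM near weaning without overlap. The long noncoding RNA Snhg11 averaged 76.9 ± 63.9 CPM at P60 and 10.6 ± 7.72 CPM near weaning. None of these 5 passed the test over all genes in the 20-batch fit.

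The genes that define α cells showed no call. All 14 members of the α identity list were tested, 0 were called and 0 had groups that did not overlap. Over all genes tested, 0.00625% were called in each direction, and 0.6% were higher and 0.631% lower without overlap. At such shares most lists of this length would show 0 of each. At an unadjusted p under 0.05, 3 were lower, beside 4.76% of all genes tested. The median log2 change was -0.19 beside 0.01 over all genes. Ttr, the thyroxine carrier transthyretin that α cells also secrete, averaged 22270 ± 7271 CPM at P60 and 31830 ± 3430 CPM near weaning (SD, n = 5 each, adjusted p = 0.558). The exception in size was Slc38a5, the glutamine transporter that α cells induce when glucagon signalling is blocked. It had 108, 214, 111, 318 and 163 CPM in P60-1 to P60-5, against 397 and 732 CPM at P15 and 184, 311 and 453 CPM at P18. Its groups overlapped at P60-4 and P60-2 (log2 change -1.23, adjusted p = 0.356), and its stage means were 4335 CPM at E17.5, 1244 CPM at P0, 2373 CPM at P9, 564 CPM at P15, 316 CPM at P18 and 183 CPM at P60.

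**Figure D2:**
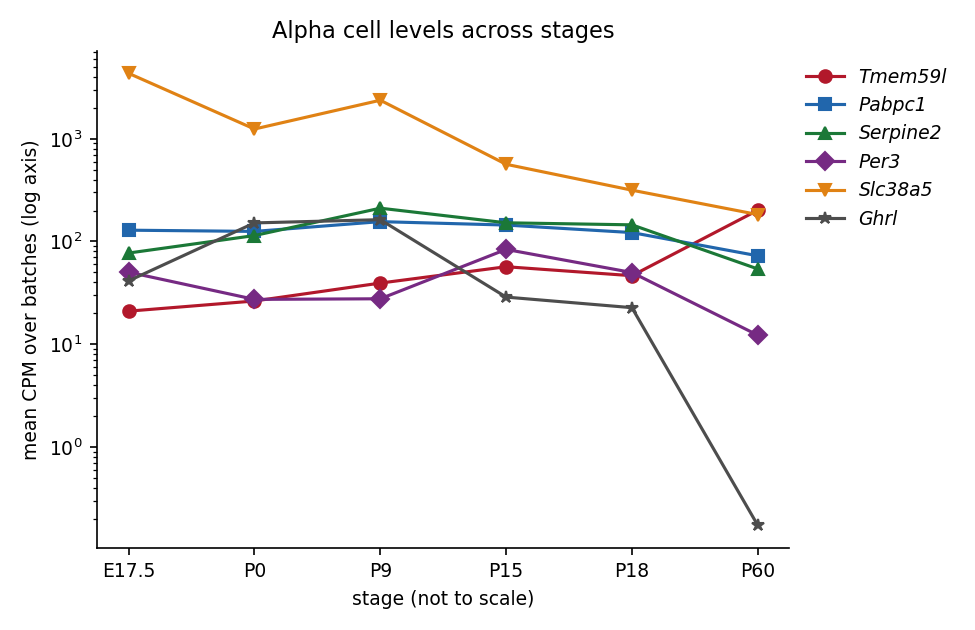
Mean CPM over batches (y axis, log scale) of 6 genes in α cells at each stage (x axis, not to scale). Tmem59l stood highest at P60, where Pabpc1, Serpine2, Per3, Slc38a5 and Ghrl had the lowest of their 6 stage means.

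The secretory machinery likewise had no called member, where 0.00625% of all genes tested were called in each direction. Of 18 prohormone processing and granule genes tested, 2 were higher and 1 lower at an unadjusted p under 0.05, with a median log2 change of 0.03. Pcsk2, the convertase that cuts proglucagon into glucagon, averaged 6128 ± 555 CPM at P60 and 6202 ± 731 CPM near weaning (SD, n = 5 each). Chga, the granule protein chromogranin A, averaged 7265 ± 881 CPM at P60 and 6689 ± 1069 CPM near weaning. Of 28 exocytosis genes tested, 3 were higher in every P60 batch and 0 were lower in every one, while at an unadjusted p under 0.05 2 were higher and 4 lower. Over all genes tested, the shares in the same order were 0.6%, 0.631%, 3.6% and 4.76%. The 3 without overlap were Vamp8, a vesicle SNARE, at 91.7 ± 10.6 CPM against 67.2 ± 3.23 CPM near weaning, Stx1a, a plasma membrane SNARE, at 30.8 ± 7.95 CPM against 14.7 ± 6.97 CPM, and Syt11, a synaptotagmin that does not bind calcium, at 62.2 ± 11.5 CPM against 39.7 ± 3.40 CPM. Their adjusted p-values were 0.470, 0.604 and 0.618, and the unadjusted p of Stx1a (0.0515) and Syt11 (0.0588) did not reach 0.05. Of 31 ion channel and glucose sensing genes and 30 receptor genes tested, 0 were called and 0 had groups without overlap.

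Genes of the circadian clock had log2 changes in both directions, and none was called. In the clock, ARNTL and CLOCK bind E-box elements and activate the Per and Cry genes, whose products repress them. DBP, TEF and HLF activate, and NFIL3 represses, genes with D-box elements. Of 19 list members, 18 were tested, 0 were called, 13 had a negative and 5 a positive log2 change, and the median was -0.56 beside 0.01 over all genes. That median was -0.31 against P18 alone, -0.28 in sorted batches and -0.36 in picked batches. At an unadjusted p under 0.05, 3 were lower and 3 were higher, and in 2 and 1 of them the groups did not overlap. Over all genes tested, 4.76% were lower and 3.6% higher at that threshold. The groups did not overlap in 0.631% and 0.6% of all genes, and 51.1% had a positive log2 change.

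Per3, a Per family repressor, had 14.1, 17.7, 16.6, 7.61 and 5.22 CPM in P60-1 to P60-5, against 97.3 and 70.1 CPM at P15 and 72.1, 48.4 and 29.1 CPM at P18. All P60 batches were lower (log2 change -2.28 ± 0.41 SE, adjusted p = 0.0526), and 21 of 83 P60 cells and 56 of 89 near-weaning cells had at least 10 CPM. Over 23 alternative settings its adjusted p ran from 2.13e-06 with DESeq2 to 0.854 in picked batches alone, and 5 settings called it. It was 0.0312 on all 45 batches, 0.221 on only the 10 batches, 0.304 against P18 alone and 0.203 in sorted batches. Tef had 5.69, 0.428, 15.1, 10.5 and 14.5 CPM in P60-1 to P60-5, against 59.2 and 28.1 CPM at P15 and 15.2, 44.0 and 47.8 CPM at P18, so that P60-3 and P18-1 almost touched (adjusted p = 0.443). Cry2, a Cry family repressor, averaged 104 ± 37.2 CPM at P60 and 190 ± 71.5 CPM near weaning, with overlap.

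The 3 members that were higher at an unadjusted p under 0.05 were Nfil3, Arntl and Rora, set against Per3, Tef and Cry2 on the lower side. Clock, whose product acts with ARNTL, had a negative log2 change, from -0.83 to -0.49 when single batches were left out. Nfil3 had 24.5, 54.4, 28.9, 34.2 and 46.1 CPM in P60-1 to P60-5, against 5.26 and 22.9 CPM at P15 and 23.5, 10.9 and 14.7 CPM at P18, again without overlap (adjusted p = 0.411). Arntl had 20.1, 24.4, 38.7, 23.7 and 30.5 CPM in P60-1 to P60-5, against 4.98 and 11.3 CPM at P15 and 20.9, 13.7 and 2.47 CPM at P18, with overlap at P60-1 alone (adjusted p = 0.542). Rora, a nuclear receptor that activates Arntl, averaged 65.8 ± 14.1 CPM at P60 and 43.7 ± 13.0 CPM near weaning. Per1, Per2 and Dbp were lower on average at P60, at 40.0, 11.8 and 7.34 CPM against 64.8, 22.1 and 16.7 CPM near weaning, at unadjusted p of 0.07, 0.0579 and 0.0885. Exons of Arntl, Rora, Cry2, Dbp and Tef overlap those of another annotated gene, and reads of such pairs cannot be told apart in a library without strand. The labels give no hours of collection, so the part of time of day in the clock gene values was not tested.

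**Figure D3:**
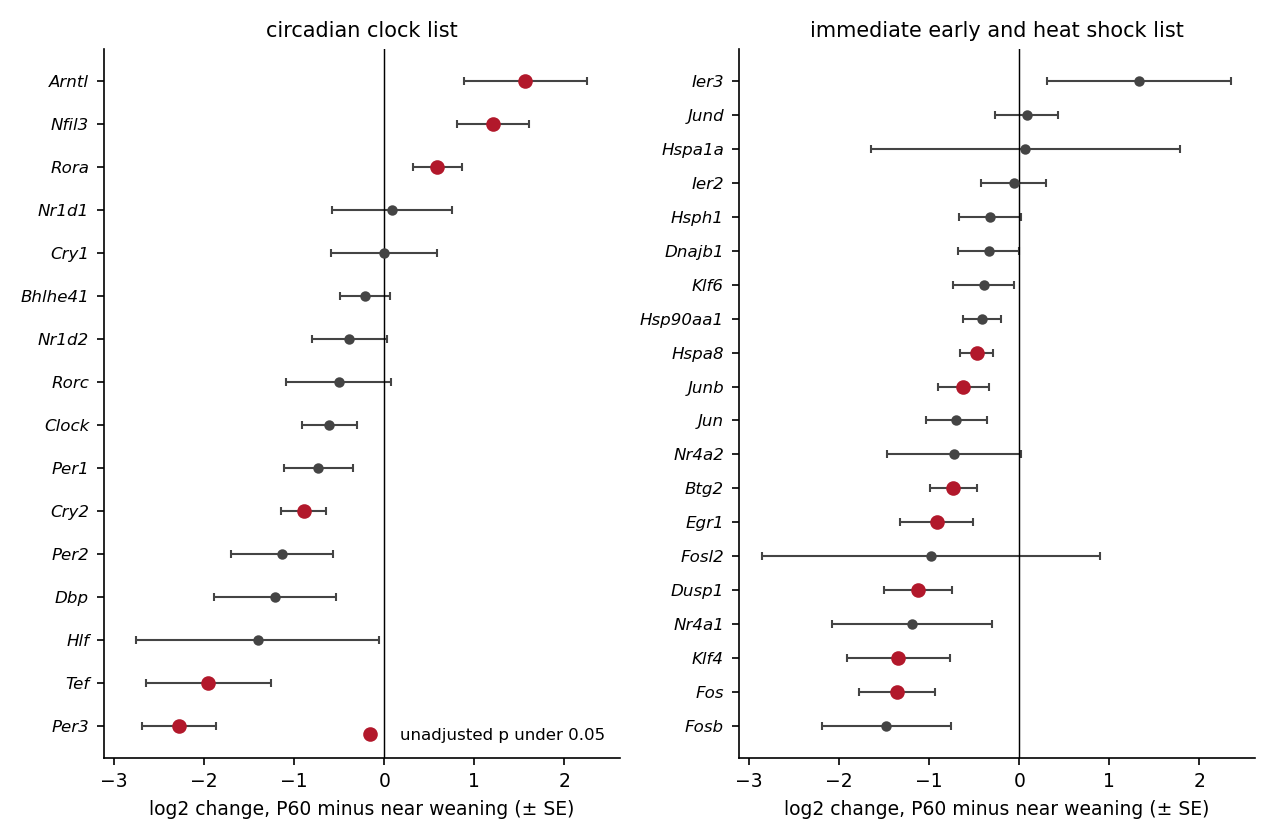
Log2 change of P60 minus near weaning (x axis, with SE) for the tested members of 2 lists that reached 5 CPM in either group, 16 clock genes left and 20 immediate early and heat shock genes right. Red points had an unadjusted p under 0.05, and Arntl, Nfil3 and Rora lie on the side opposite to Per3, Tef and Cry2.

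Promoter windows of RefSeq (GRCm38), the 250 bases before a gene's start, were searched for the letters of E-box, D-box and cyclic AMP response elements. The Per3 window holds the D-box letters TTATGTAA in 2 copies, the first starting 205 bases before the start, and the windows of both Tef starts hold the E-box letters CACGTG. The window of Tmem59l holds the cyclic AMP response element letters TGACGTCA, starting 22 bases before the start. Windows of Btg2 and Dusp1, both lower on average at P60, and of Sst and Hlf hold these letters too. E-box letters were also found before Mlxipl, Adcy1, Klf4, Dusp1 and Slc38a5, lower on average at P60, and before Sdf4, which was higher. Each motif was searched on both strands, and capitals mark the match.
Per3 (chr4:151044666-151044915, minus strand): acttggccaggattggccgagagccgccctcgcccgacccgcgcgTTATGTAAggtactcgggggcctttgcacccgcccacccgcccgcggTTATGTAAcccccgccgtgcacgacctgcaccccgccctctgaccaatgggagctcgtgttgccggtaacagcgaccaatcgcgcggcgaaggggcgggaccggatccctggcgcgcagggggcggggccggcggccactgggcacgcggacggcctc
Tef (chr15:81802423-81802672, plus strand): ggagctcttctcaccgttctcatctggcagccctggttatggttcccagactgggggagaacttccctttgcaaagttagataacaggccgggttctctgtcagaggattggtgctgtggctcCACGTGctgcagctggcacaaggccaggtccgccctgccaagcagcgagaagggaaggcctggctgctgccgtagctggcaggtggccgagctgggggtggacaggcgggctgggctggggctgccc
Tef (chr15:81811164-81811413, plus strand): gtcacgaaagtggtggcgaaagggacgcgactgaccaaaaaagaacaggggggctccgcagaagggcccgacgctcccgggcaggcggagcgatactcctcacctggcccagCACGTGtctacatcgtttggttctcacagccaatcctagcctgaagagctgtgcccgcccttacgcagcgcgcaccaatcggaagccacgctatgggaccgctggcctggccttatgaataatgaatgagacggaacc
Tmem59l (chr8:70487349-70487598, minus strand): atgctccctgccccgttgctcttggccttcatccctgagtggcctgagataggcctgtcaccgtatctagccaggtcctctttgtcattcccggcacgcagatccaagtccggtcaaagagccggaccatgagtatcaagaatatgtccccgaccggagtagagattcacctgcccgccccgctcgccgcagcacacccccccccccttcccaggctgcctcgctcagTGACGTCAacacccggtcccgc
Of 32851 windows of this length, 0.819% held the D-box letters, 6.02% the E-box letters and 1.55% the cyclic AMP response element letters. Among the 16 clock list genes with a window, 5 held the E-box letters and 1 the D-box letters, and the windows of Nfil3, Arntl, Rora, Cry2 and Dbp held neither. These counts are of genes with a match in any window, and some genes have several windows. They are therefore not comparable with the shares of single windows. The Per3 window held no E-box letters. A match is a description of the letters in the window.

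Immediate early and heat shock genes, which rise within minutes of a stimulus and after tissue handling, were mostly lower at P60 without a call. Of 29 tested, 24 had a negative log2 change, while 51.1% of all genes tested had a positive one. At an unadjusted p under 0.05, 8 were lower and 0 higher, beside 4.76% and 3.6% of all genes. The list median was -0.72, against -0.43 in picked batches or with each cell weighted equally. Fos had 546, 64.0, 213, 263 and 313 CPM in P60-1 to P60-5, against 810 and 831 CPM at P15 and 632, 1064 and 312 CPM at P18. The lowest near-weaning batch, P18-3, lay beside P60-5 and below P60-1, and the adjusted p was 0.366. Btg2, an antiproliferative early gene, averaged 233 ± 46.5 CPM at P60 and 382 ± 76.8 CPM near weaning, and Klf4, a zinc finger factor, 9.43 ± 3.46 CPM and 24.4 ± 6.76 CPM, both without overlap (SD, n = 5 each). Egr1 averaged 160 ± 87.3 CPM at P60 and 313 ± 146 CPM near weaning, Dusp1, a phosphatase that ends MAP kinase signalling, 72.6 ± 36.7 CPM and 167 ± 84.2 CPM. At P60 the sorted batches P60-1 and P60-5 had more Fos and Egr1 than the picked ones, while Btg2, Klf4 and Dusp1 were mixed. Near weaning, the picked batch P18-3 was lowest for Fos, Egr1 and Dusp1 but not for Btg2 and Klf4. The other picked batch, P15-2, had more Fos than the sorted P15-1 and P18-1. Its Egr1 lay between the values of the sorted batches, and its Dusp1 lay below all of them. The part of handling in these values was not tested.

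**Figure D4:**
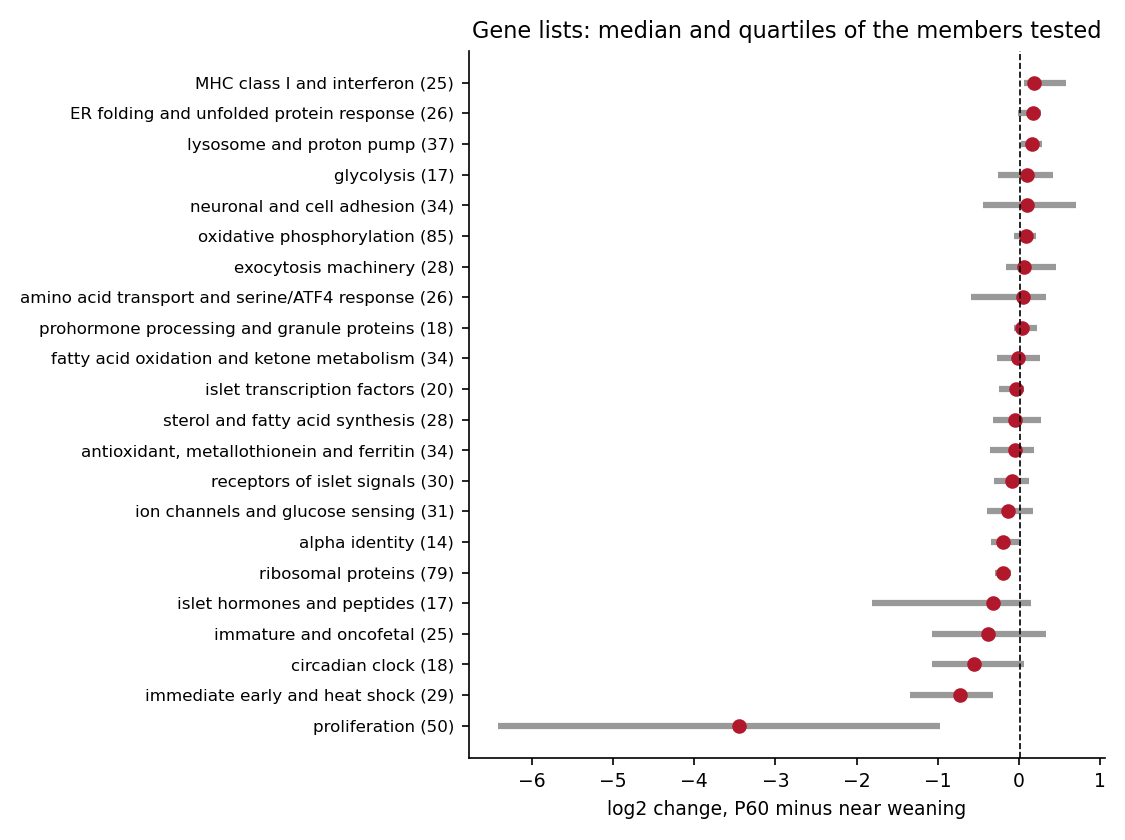
Median (point) and quartiles (bar) of the log2 change of P60 minus near weaning (x axis) over the tested members of 22 gene lists, with the number tested in brackets. The dashed line is the median of all genes tested, 0.01, and most lists lie near it while the proliferation list lies far to the left. The median of that list was 0.02 against P18 alone.

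Proliferation genes had the most negative list median, -3.45 over 50 tested members, and 0 were called. At an unadjusted p under 0.05, 24 were lower, beside 4.76% of all genes tested. The P15 batches carried this difference. Top2a, the topoisomerase that untangles DNA in dividing cells, had 0.207, 0.357, 1.69, 0.340 and 0.124 CPM in P60-1 to P60-5, against 134 and 65.1 CPM in the P15 batches and 0.206, 0.337 and 0.596 CPM in the P18 batches. The P60 and P18 batches lay in 1 range, and the P15 batches lay far above it. Mki67, a marker of cycling cells, had at most 5.58 CPM in a P60 batch, against 65.3 and 23.5 CPM in the P15 batches and at most 1.68 CPM in a P18 batch. Against P18 alone the count of members lower at an unadjusted p under 0.05 was 2 in place of 24, and the list median was 0.02. Against P15 and P18 together, the median was -0.28 with each cell weighted equally. It was -0.52 over the 15 members of at least 20 CPM in the higher group.

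The cells behind the high P15 values were few. A cell with at least 10 CPM of 3 or more of Mki67, Top2a, Cdk1, Ccna2 and Birc5 was counted as cycling, which gave 0 of 83 P60 cells and 3 of 89 near-weaning cells. A count of 0 allows a P60 share of up to 3.61% by the floor of 3 counts. The exact 95% interval, for counting error only, was 0% to 4.35% at P60 and 0.701% to 9.54% around the near-weaning share of 3.37%. All 3 came from P15, where they were 3 of 45 cells, and 0 of 44 P18 cells were cycling. Since cycling cells were found in the P15 batches only, a two-sided exact permutation test of the share per batch could not have passed (p = 0.444). The sum of the 47 proliferation genes other than D cyclins ran from 150 to 231 CPM in the P60 batches, against 1460 and 929 CPM in the P15 batches and 165 to 211 CPM in the P18 batches. Without these 3 cells the P15 sums were 258 and 207 CPM. Tk1, thymidine kinase of S phase, was lower in every P60 batch and also against the P18 batches, at 0.680 to 2.47 CPM in P60 batches, 6.90 to 8.60 CPM in P18 batches and 3.35 and 23.7 CPM in P15 batches (adjusted p = 0.356).

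**Figure D5:**
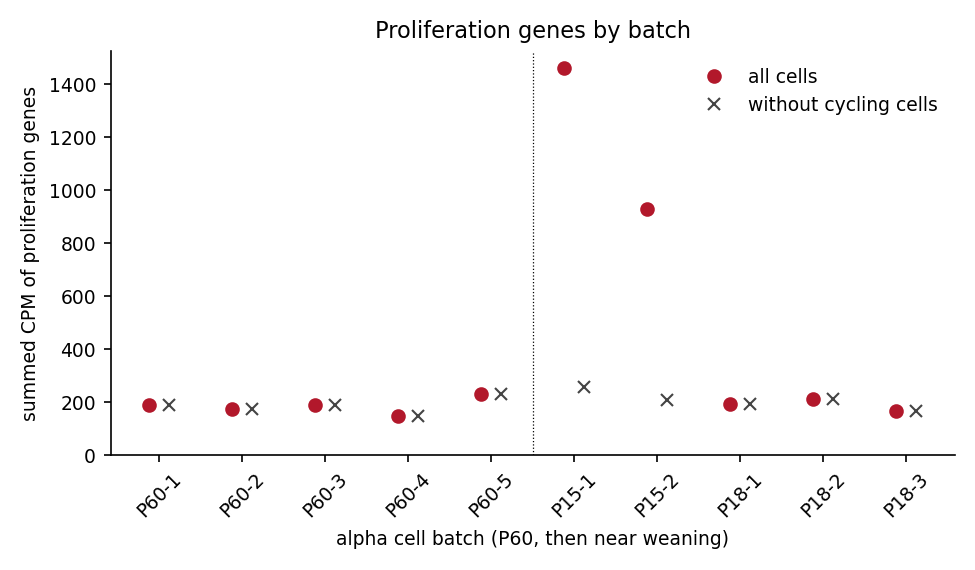
Summed CPM of 47 proliferation genes (y axis, linear, unscaled library sizes) in each α cell batch (x axis), P60 left of the dotted line and near weaning right, with all cells and without the cells counted as cycling. The P60 batches lie between 150 and 231 CPM, and the P15 batches stand at 258 and 207 CPM without cycling cells.

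Hormones of other islet cells were present at low or variable levels. The single-hormone label itself rests on such hormones, so their values are a description of the chosen cells. Ghrl, the ε cell hormone ghrelin, had 0, 0, 0.603, 0.136 and 0.124 CPM in P60-1 to P60-5, against 25.3 and 32.2 CPM at P15 and 15.6, 15.7 and 36.7 CPM at P18. No batch overlapped, with 14 reads in all at P60 and 2083 near weaning (adjusted p = 0.0526), and at least 10 CPM was reached in 0 of 83 and 18 of 89 cells. Its stage means were 41.4 CPM at E17.5, 152 CPM at P0, 163 CPM at P9, 28.7 CPM at P15, 22.7 CPM at P18 and 0.173 CPM at P60. Exons of Ghrl overlap those of 2 predicted genes. Gast, gastrin, which islets express before birth, averaged 1.66 ± 2.32 CPM at P60 and 10.2 ± 3.37 CPM near weaning (adjusted p = 0.356).

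Ppy, pancreatic polypeptide, had 8363, 7749, 1495, 9563 and 8210 CPM in P60-1 to P60-5, against 12660 and 760 CPM at P15 and 1893, 14890 and 5026 CPM at P18. Both groups spread widely and overlapped throughout. Over 1000 CPM of Ppy was reached in 3 to 7 cells of each P60 batch and in 4 to 15 cells of each near-weaning batch, although all are labelled as single-hormone cells. Pyy, peptide YY, averaged 5616 ± 1712 CPM at P60 and 7916 ± 2474 CPM near weaning (adjusted p = 0.572). Ins2, insulin, had 47.7, 155, 271, 35.9 and 228 CPM in P60-1 to P60-5, against 89.6 and 24.4 CPM at P15 and 109, 5065 and 128 CPM at P18. The value of P18-2 came from 2 of its 13 cells with over 1000 CPM, up to 36060 CPM, although all 13 are labelled as single-hormone α cells. Ins1 and Sst, somatostatin, averaged 72.9 and 56.4 CPM at P60 and 76.0 and 43.1 CPM near weaning.

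Summed markers of other cell types were compared over the batches in two-sided exact permutation tests, adjusted over 12 lists. The δ cell list was lower at P60, with 641 to 836 CPM against 846 to 1524 CPM near weaning and no overlap (p = 0.00794, the smallest possible, adjusted p = 0.0952). That sum was mostly Rbp4, a retinol carrier that α cells also express, at 592 ± 135 CPM at P60 and 1012 ± 256 CPM near weaning, while Hhex, the δ cell factor, was at or under 0.136 CPM in every batch and Ghsr at 0. The acinar list ran from 76.0 to 321 CPM at P60 and from 59.0 to 106 CPM near weaning (adjusted p = 0.444). Of its 13 tested members, 11 had a positive log2 change, beside 51.1% of all genes tested. The β list ran from 708 to 1576 CPM at P60 and from 670 to 7006 CPM near weaning (adjusted p = 0.310), and Mafa, the mature β cell factor, was at 0 in all 10 batches. No list passed after adjustment, and the part of other cell types in the gene values was not tested.

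No ribosomal protein gene passed the test. Of 79 tested, 72 had a negative log2 change, while 51.1% of all genes tested had a positive one. At an unadjusted p under 0.05, 14 were lower and 0 higher, beside 4.76% and 3.6% of all genes. The list median was -0.20, which ran from -0.37 in sorted batches to -0.096 in picked batches and was -0.11 against P15 alone. Rpl4 had 741, 802, 796, 777 and 851 CPM in P60-1 to P60-5, against 939 and 857 CPM at P15 and 1104, 1377 and 1354 CPM at P18. Its groups did not overlap, though P60-5 and P15-2 were nearly equal (log2 change -0.49, adjusted p = 0.356). Naca, part of the complex that guards nascent chains, averaged 138 ± 2.94 CPM at P60 and 184 ± 16.7 CPM near weaning, without overlap. These genes have many near-identical copies, which makes their counts uncertain, as does the small nucleolar RNA gene within Rpl4.

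Lists of organelles showed small positive medians. In the lysosome and proton pump list, 28 of 37 tested members had a positive log2 change, beside 51.1% of all genes tested. At an unadjusted p under 0.05, 5 were higher and 2 lower, beside 3.6% and 4.76% of all genes. The list median was 0.16, against 0.073 when P18 alone was compared. Ctsz, a cathepsin, averaged 279 ± 48.7 CPM at P60 and 201 ± 32.2 CPM near weaning, and Npc2, which hands cholesterol out of the lysosome, 443 ± 61.1 CPM and 323 ± 65.7 CPM, without overlap. In the list of ER folding, 19 of 26 were positive with a median of 0.17, which was 0.28 in sorted and 0.086 in picked batches, and Pdia3, a disulfide isomerase of glycoproteins, averaged 963 ± 73.8 CPM at P60 and 751 ± 74.8 CPM near weaning, without overlap (adjusted p = 0.360). Of 85 oxidative phosphorylation genes tested, 54 were positive, beside 51.1% of all genes tested. Their median was 0.09, which ran from 0.035 in sorted batches to 0.11 against P18 alone. At an unadjusted p under 0.05, 5 of them were higher and 2 lower, and in the ER folding list 2 were higher and 1 lower. Ppargc1a, a coactivator that promotes mitochondrial genes and belongs to the fatty acid oxidation list, had 25.9, 10.2, 14.0, 13.5 and 9.01 CPM in P60-1 to P60-5, against 6.22 and 2.31 CPM at P15 and 2.13, 3.54 and 0.341 CPM at P18. It was higher in every P60 batch (log2 change 2.51, adjusted p = 0.497). Over all genes tested, 0.6% were higher without overlap. In these lists they were 2 of 37 lysosome, 1 of 26 ER folding, 1 of 85 oxidative phosphorylation and 1 of 34 fatty acid oxidation genes.

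MHC class I and interferon genes had 20 of 25 positive, beside 51.1% of all genes tested, with a median of 0.18. None of them had an unadjusted p under 0.05. B2m, which encodes the invariant β2-microglobulin subunit, averaged 121 ± 39.0 CPM at P60 and 96.3 ± 25.5 CPM near weaning (adjusted p = 0.825). Among immature and oncofetal genes, 7 of 25 tested were lower and 1 higher at an unadjusted p under 0.05, and the median was -0.38. Over all genes tested, 4.76% were lower and 3.6% higher at that threshold. Mest, an imprinted gene of fetal growth, had 0.724, 0, 0.543, 5.78 and 3.91 CPM in P60-1 to P60-5, against 13.5 and 24.3 CPM at P15 and 14.4, 16.4 and 66.9 CPM at P18, without overlap (adjusted p = 0.356). Grb10, an imprinted adaptor that dampens insulin receptor signalling, had 97.3, 116, 111, 140 and 131 CPM in P60-1 to P60-5, against 127 and 252 CPM at P15 and 179, 248 and 257 CPM at P18 (adjusted p = 0.261). Only P15-1 lay within its P60 range. Dlk1, an imprinted Notch ligand homologue, was at most 1.04 CPM in any batch of either group.

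The lists of islet transcription factors, amino acid transport, glycolysis, fatty acid oxidation, sterol synthesis, antioxidant genes and neuronal adhesion had 0 called members, and their medians lay between -0.05 and 0.10. Over all genes tested, 0.00625% were called in each direction.

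The same contrast was set beside that of β cells, which came from Ins1-RFP mice in 5 batches at P60 and 6 near weaning, in a fit on all 45 batches. The change differed between α and β cells in 1 of 17533 genes, Ano9, a membrane protein of the anoctamin family, which was lower in α cells (0.0057%). At an unadjusted p under 0.05, 649 differences were positive and 784 negative, and DESeq2 called 77 and 101. Ano9 had 0 reads in the α batches at P60 and 0, 5.39, 1.31, 7.66 and 0.341 CPM in P15-1 to P18-3, at least 77.3-fold lower at P60 if 3 reads are taken as the floor for the whole group. It averaged 7.96 ± 3.56 CPM in β cells at P60 and 6.05 ± 3.70 CPM near weaning (SD, n = 5 and 6), and the difference had an edgeR adjusted p of 0.0216. At least 10 CPM of Ano9 was reached in 0 of 83 P60 and 4 of 89 near-weaning α cells. No negative difference was called without α batch P60-1, P60-2, P60-4 or P60-5 or without β batch P15-1 or P18-2, and 6 were called without α batch P15-2. Ano9 was chosen after its values were seen.

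Tmem59l also rose in β cells, at 20.4 ± 12.2 CPM at P60 and 0.659 ± 0.708 CPM near weaning (adjusted p = 0.00184), and the difference between the cell types had an adjusted p of 0.372. Pabpc1 averaged 67.0 ± 4.78 CPM in P60 β cells and 76.4 ± 6.14 CPM near weaning (adjusted p = 0.840), and the difference between the cell types had an adjusted p of 0.237. Slc38a5 fell in β cells, at 0.944 ± 0.720 CPM at P60 and 14.6 ± 15.7 CPM near weaning (adjusted p = 0.00184). Per3 averaged 19.4 ± 7.89 CPM in P60 β cells and 26.1 ± 16.4 CPM near weaning (adjusted p = 0.973), and the difference between the cell types had an adjusted p of 0.356.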

How the data were processed

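Raw read counts per gene were deposited by the authors, whole numbers with no normalization. The submitters' processing notes list the builds GRCm38 and mm10 and the tools DESeq 1.20.0, TopHat2 2.1.0 and HTSeq 0.6.0. What each tool did, and whether counting used strand, is not given in the sources used here. The table held 40824 gene rows and 92 spike-in rows, and spike-ins were left out of library sizes. Of its 917 cell columns, 51 (hormone-mixed, hormone-negative or enriched cells) were not used, and 0 pairs of columns were identical.

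Counts were summed per batch. edgeR 4.0.16 (R 4.3.3, quasi-likelihood, TMM, low-count filter) was fitted to 20 α batches with stage (P15 and P18 merged) and collection method, and to 45 batches for the α and β difference. SEs are those implied by the test statistic. Alternatives used DESeq2 1.42.0 and limma 3.58.1 on log2(CPM + 1). The script was tested on simulated data. Single values were tested by exact permutation over batches in scipy. Depth per batch limits low genes: intervals and floors cover counting error only, since reads are not molecules.

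The named genes are Gcg, up to 6 called genes per direction with at least 20 CPM and no overlap, called list members, a set of genes called or not and called α and β differences of at least 20 CPM, which gave 16, plus 65 added after their values were seen; a few others are not reported here. Many of the added genes were picked because their groups did not overlap, so that trait of theirs is no separate evidence. The cells and lists were chosen with earlier results of these data known. GENCODE M21 gave coordinates, and exons of 23 of the 81 named genes overlap another gene.

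Batch numbers are shared between groups, and the labels do not say that they pair the batches. Deviations of same-numbered batches from their stage means had correlations from -0.0098 to 0.0138 over all tested genes. With 2 P15 batches the deviations mirror each other, so this check cannot settle pairing. The main fit took the batches as unpaired.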

Additional observations from a re-analysis of the deposited data

Results flagged for a closer look

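Batches far from the others of their group were looked for in 164 groups of 5, and 9 were found, where chance alone flags about 1 in 20 groups. Near weaning, P18-2 stood apart for Ins2 at 5065 CPM and for Stx1a at 2.78 CPM, P15-1 for Rrm2 at 88.6 CPM and Tk1 at 23.7 CPM, and P18-3 for Mest at 66.9 CPM. At P60, P60-4 stood apart for Mki67 at 5.58 CPM and Npc2 at 551 CPM, P60-3 for Ppy at 1495 CPM, and P60-1 for Gast at 5.74 CPM. The change of Ano9 differed between α and β cells by -9.32 on the log2 scale, a fitted value that depends on the prior count since the P60 α batches had 0 reads. Without single batches the number of such differences ran from 0 to 1 for positive and from 0 to 6 for negative ones.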

How the results depend on the processing

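Counts of called genes (higher, lower) moved from 1 and 1 to 101 and 188 with DESeq2, 2 and 4 without the low-count filter, 4 and 2 with each cell weighted equally, 9 and 23 with all 45 batches, 0 higher with only the 10 batches or with P15 and P18 separate, 0 and 3 against P15 alone, 5 lower without the collection method term, and 0 and 0 against P18 alone, in FACS-sorted or manually-picked batches only and with the replicate block. Leaving out single batches gave 0 to 1 higher and 0 to 2 lower. The α and β difference counted 77 and 101 with DESeq2, 4 negative without the filter, 3 negative in sorted batches, 2 and 2 in picked batches, and 0 with the block, and without single batches 0 to 1 positive and 0 to 6 negative. The block is given although the labels do not say that the batch numbers pair the batches. The causes were not tested.

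Genes detected per cell differed by -126 in sorted batches only, the opposite sign. The difference in reads per cell ran from 0.0739 to 0.174 M without single batches. Log2 changes of uncalled genes that changed sign were Gcg -0.064 and Ppy -0.17 with 45 batches; Pcsk2 0.032 and Ppy -0.24 in sorted batches; Ins2 1.01 and Sst -0.00475 in picked batches; Pcsk2 0.11, Ins2 1.90 and Sst -0.23 against P15; Ins1 -0.10, Dlk1 0.80 and Cdk1 5.75 against P18; Ins1 -0.25 and Ppy -0.75 with equal cells; Ins1 -0.058 without the method term and -0.34 with the block. Without single batches, Ins1 ran from -0.54 to 0.41, Ins2 from -2.43 to 0.87, Pcsk2 from -0.092 to 0.024, Ppy from -0.28 to 0.53 and Sst from -0.058 to 1.47. With 5 batches a group and a common dispersion of 0.726, changes of 2-fold are mostly missed.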
